A study of Arabidopsis thaliana with 4 samples.

Results

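The plastid genome of Arabidopsis encodes the core subunits of the photosynthetic complexes of the thylakoid membrane, and 33 of its genes are described here. They are the plastid genes with a symbol that begins with psa (photosystem I, 5 genes), psb (photosystem II, 15 genes), pet (cytochrome b6f complex, 6 genes) or atp (ATP synthase, 6 genes), and rbcL, which encodes the large subunit of Rubisco. All 33 genes that the gene table (assembly TAIR10.1) gives under these symbols had a probe set with a single gene on the array. They are 33 of 69 such plastid probe sets, the others being 10 of ndh genes and 26 of further genes, and 33 of 22746 probe sets on the array without its 64 controls. Transcript levels were read from 4 ATH1 arrays, 2 of the eif3h-1 mutant (eif3h below) and 2 of the wild type (WT). The mutant carries a T-DNA insertion in the gene of subunit h of translation initiation factor eIF3, which leads to a protein that lacks its carboxy terminus. Seedlings of both genotypes were 10 days old and had grown under continuous light on agar with sucrose, and total RNA was extracted from their aerial parts. Each of 2 experimental repeats, prepared on different days, gave 1 array of each genotype. A line with a single insertion allele stands for the mutant, so the genotype is not separated from other differences the line may carry.

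Photosystem II splits water, the cytochrome b6f complex passes the electrons on, photosystem I reduces ferredoxin, and ATP synthase uses the proton gradient that results. Plastid genes are transcribed by a plastid-encoded and a nuclear-encoded RNA polymerase, mostly as clusters of several genes that are then cut into smaller RNAs, and they are translated on plastid ribosomes rather than by the cytosolic machinery to which eIF3 belongs. The remaining subunits of the same complexes are encoded in the nucleus, made in the cytosol and imported. Plastid messages are not stably polyadenylated, and how the first cDNA strand was primed is not given in the sources used here, so the part of priming in the values below was not tested. In RNA of whole aerial parts, fewer plastid-rich cells and less RNA per cell cannot be told apart.

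The value of a probe set is the MAS 5.0 signal, an intensity in arbitrary units that was scaled by the authors to a common trimmed mean for each array. Signals serve to compare arrays for the same probe set, not to compare genes. The log2 ratio of eif3h to WT was taken within each repeat, and genotypes were compared with limma on log2 signals, with the repeat as a block, over the brighter part of the array. A gene was called at an adjusted p under 0.05. This test covered 31 of the 33 genes, since petD and psbN lay below 327, the lowest mean signal that was tested. The median signal of an array was 208 and 220 in eif3h and 200 and 217 in WT, and the highest signal of an array was 37509 and 86884 in eif3h and 43564 and 102339 in WT. The highest signals of repeat 1 were thus well below those of repeat 2 in both genotypes, and the repeats were scanned on different instruments. Within each repeat the highest signal was also lower in eif3h than in WT, and the part of this in the ratios of bright genes was not tested. The 33 genes held 2.17% and 2.71% of the summed signal in eif3h and 2.67% and 2.79% in WT. The transcript of the mutated gene itself (TIF3H1, probe set 262790_at, paired with the gene only in the study's supplementary list) had signals of 245 and 432 in eif3h and 1363 and 1020.5 in WT, so it was lower in both mutant arrays (log2 fold change -1.86, adjusted p = 0.00707). Where that probe set lies relative to the insertion is not given in the sources used here. Of 5 root markers that aerial parts should lack, only EXPA7 had a single-gene probe set, with 78.1 and 128 in eif3h and 61.8 and 72.2 in WT. None of 5 green shoot markers had one, so the tissue label was not checked with them.

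**Figure D1:**
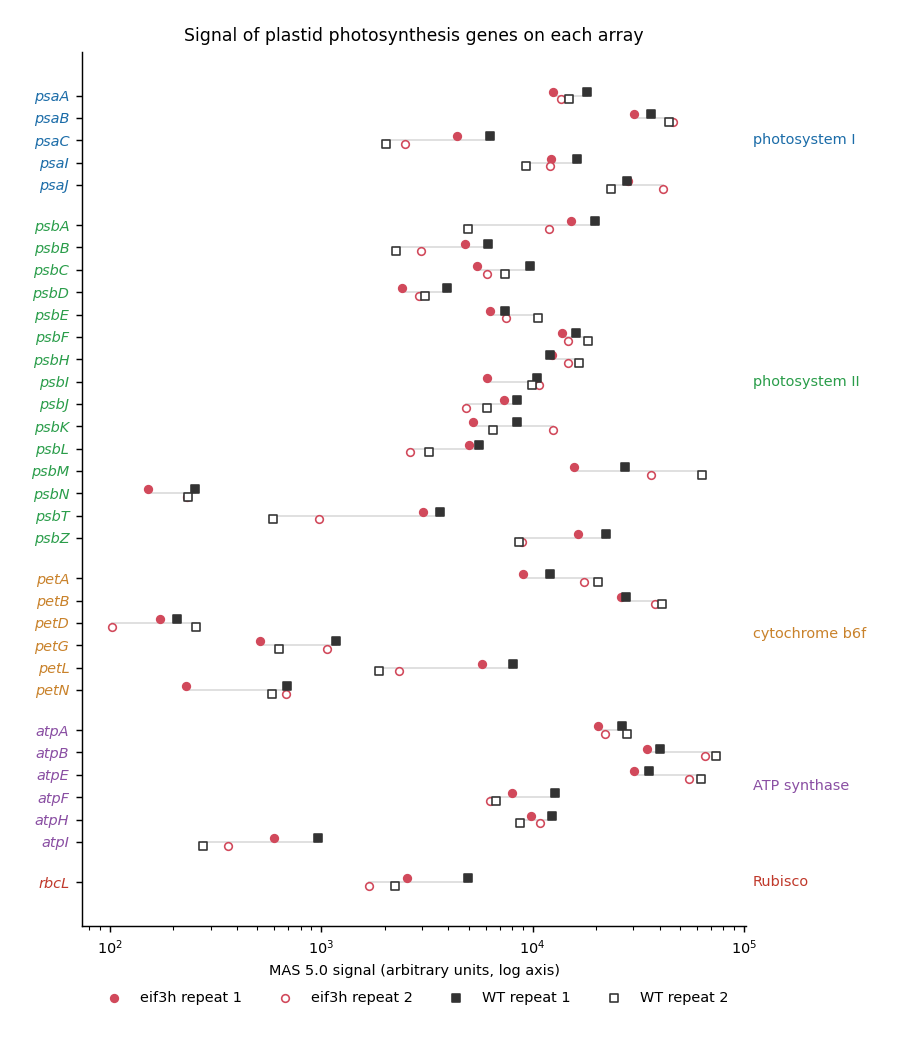
MAS 5.0 signal (arbitrary units, log axis) of each of the 33 plastid photosynthesis genes on the 4 arrays, with eif3h as circles, WT as squares, repeat 1 filled and repeat 2 open. Filled and open symbols of a genotype are often further apart than the genotypes within a repeat, as for psbT with 3037 and 982 in eif3h and 3633 and 594.5 in WT.

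The photosynthesis genes of the plastid stood mostly below WT in the first repeat and were divided in the second, and a single gene passed the test. In the first repeat 31 of the 33 genes had a lower signal in eif3h (29 of the 31 tested, against 47.2% of all probe sets tested), with a median log2 ratio of -0.41 and a range of -1.59 to 0.03. In the second repeat 18 of 33 were lower (16 of 31 tested, against 47.5%), with a median of -0.09 and a range of -1.32 to 1.28. In both repeats 17 genes were lower (15 of 31 tested, against 34.7%) and 1, psaJ, was higher (against 40.0%). The remaining 15 went opposite ways, 14 of them lower in the first repeat and higher in the second, and psbH the other way round. Quantile normalization gave 28 lower genes in the first repeat and 16 in the second, and centring the arrays on their medians gave 33 and 18.

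With both repeats in the fit, 1 of the 31 tested genes fell in eif3h (psbM), 0 rose and 30 were not called. Over all probe sets tested 9.68% fell and 8.49% rose. At an unadjusted p under 0.05 there were 3 of the 31 genes, psbM, rbcL and psbC, all lower in eif3h. Over all probe sets tested 3181 had an unadjusted p under 0.05, which was a larger share than among these genes. The median log2 fold change of the 31 genes was -0.21, against 0.03 over all tested probe sets. Fitted log2 fold changes ran from -0.80 for psbM to 0.46 for psbA, so that none of the genes differed by over 2-fold, whereas 4.20% of all tested probe sets did so below WT and 2.29% above it. Few genes had arrays of the genotypes that did not overlap. Both eif3h arrays lay below both WT arrays for 7 genes (atpA, psaA, psbC, psbD, psbF, and the untested petD and psbN), or 5 of the 31 tested, against 23.9% of all tested probe sets. They lay above both WT arrays for psaJ alone, against 28.4%. For a single gene with 2 arrays of each genotype, 0.333 is the smallest two-sided p of an exact permutation test.

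**Figure D2:**
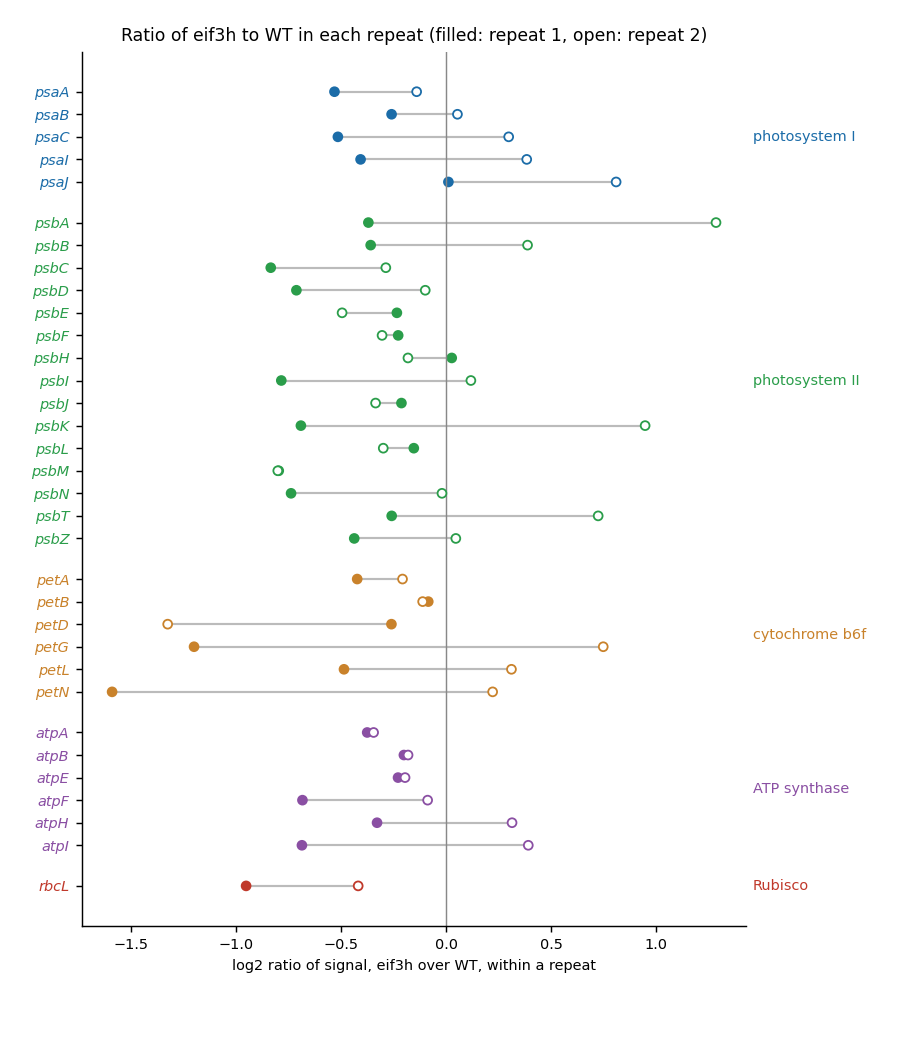
Log2 ratio of eif3h to WT within repeat 1 (filled) and repeat 2 (open) for each of the 33 genes, grouped and coloured by complex, with a line joining both ratios of a gene. The filled points lie left of 0 for all genes but psaJ and psbH, whereas the open points spread from -1.32 (petD) to 1.28 (psbA).

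Photosystem II contributed the gene that fell and the lowest and highest fitted fold changes. Of its 15 genes 14 were lower in eif3h in the first repeat and 9 in the second, with 8 lower in both. The median log2 fold change of the 14 tested was -0.25. psbM (245001_at), which encodes a small subunit at the contact between the monomers of the complex, had signals of 15784 and 36497 in eif3h and 27404 and 63565 in WT. Each eif3h array was below the WT array of its repeat by nearly the same ratio, with a log2 ratio of -0.80 in each, although the second eif3h array was brighter than the first WT array. In the limma fit psbM was at 0.575 of the WT level, or -0.80 on the log2 scale (95% interval -1.20 to -0.40, standard error 0.17), with an adjusted p of 0.0213. Both ratios of psbM had a standard deviation of 0.0032. The standard error and interval therefore came almost wholly from the prior variance over all tested probe sets, not from the spread of psbM. The call rested on the pairing of arrays within repeats. Without the replicate block the adjusted p was 0.432, after quantile normalization the log2 fold change was -0.60 (adjusted p = 0.0639), and with all 22746 probe sets in the test the adjusted p was 0.414. With any 1 of the 4 arrays left out, in fits that mix the repeats, the log2 fold change ran from -1.41 to -0.19.

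The genes of core proteins of photosystem II divided into those with transcripts below WT in both repeats and those that turned. psbC encodes an inner antenna protein that binds chlorophyll. Its signals were 5433 and 6064 in eif3h and 9685 and 7395 in WT, without overlap. Its log2 ratio was -0.83 in the first repeat and -0.29 in the second, with a fitted log2 fold change of -0.56 (adjusted p = 0.0875, standard error 0.20), which did not pass. psbD, whose product is one of the reaction-centre proteins and whose reading frame overlaps that of psbC, had 2414.5 and 2889 in eif3h and 3955 and 3094 in WT. Its eif3h arrays were again the lowest of the 4, with log2 ratios of -0.71 and -0.10 and an adjusted p of 0.197. psbA encodes the other reaction-centre protein, which is damaged by light and replaced throughout the day. It had 15219 and 12023 in eif3h and 19662 and 4934.5 in WT, so the second WT array stood far below the other arrays. The log2 ratio was accordingly -0.37 in the first repeat and 1.28 in the second, and the fitted 0.46 carried a standard error of 0.35 (95% interval -0.35 to 1.26, adjusted p = 0.376).

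The other inner antenna protein comes from psbB, with 4798 and 2956 in eif3h and 6152 and 2259 in WT. Its fitted log2 fold change was 0.01 (95% interval -0.50 to 0.53), the ratios of -0.36 and 0.39 having opposite signs, and its sign turned to -0.02 when arrays were centred on their medians. psbT, a small subunit gene downstream of psbB, had 3037 and 982 in eif3h and 3633 and 594.5 in WT. Both genotypes were much lower in the second repeat, WT more so, and the log2 ratio was -0.26 in the first repeat and 0.72 in the second. psbK, another small subunit gene, had 5205 and 12517 in eif3h and 8400 and 6491 in WT. Here the eif3h arrays were both the lowest and the highest of the 4, with log2 ratios of -0.69 and 0.95. The 8 other photosystem II genes had log2 ratios of -0.78 to 0.03 in the first repeat and -0.49 to 0.12 in the second. Among them, psbN, which in tobacco is needed for assembly rather than being a subunit, was among the dimmest genes here (152 and 232 in eif3h, 253 and 235 in WT) and was not tested.

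Photosystem I showed the widest split between repeats in its share of lower genes. Of its 5 genes, 4 were lower in eif3h in the first repeat and 1 in the second, and the median log2 ratio was -0.41 and then 0.30. The median fitted log2 fold change was -0.10, and 0.01 after quantile normalization. psaA and psaB encode the large proteins of the reaction centre. psaA had 12487 and 13571 in eif3h and 18040 and 14951 in WT. This was the single photosystem I gene with both eif3h arrays below both WT arrays (log2 ratios -0.53 and -0.14, adjusted p = 0.235). psaB had 30198 and 45978 in eif3h and 36136 and 44276 in WT, which overlapped, with log2 ratios of -0.26 and 0.05 (fitted -0.10, 95% interval -0.52 to 0.32, and 0.13 after quantile normalization). psaJ encodes a small subunit of the complex. It had 28210 and 41324 in eif3h and 27988 and 23579.5 in WT, the only one of the 33 genes with both eif3h arrays above both WT arrays. The margin in the first repeat was small (log2 ratio 0.01, below 0 after centring on medians) and in the second it was 0.81, and the fitted 0.41 (standard error 0.22, adjusted p = 0.229) was not called. psaC, the iron-sulphur subunit that passes electrons to ferredoxin, and the small subunit gene psaI followed the pattern of the first repeat lower and the second higher, with log2 ratios of -0.52 and 0.30 and of -0.41 and 0.38.

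In the cytochrome b6f complex all 6 genes were lower in eif3h in the first repeat and 3 in the second. petB encodes cytochrome b6, and had 26207 and 37855 in eif3h and 27786.5 and 40886 in WT. The genotypes were close within each repeat, with log2 ratios of -0.08 and -0.11 (fitted -0.10, 95% interval -0.50 to 0.30, and 0.14 after quantile normalization), while both were brighter in the second repeat. petA, the gene of cytochrome f, was lower in both repeats as well (-0.42 and -0.21). The genes of the small subunits behaved otherwise. petN had 229 and 684 in eif3h and 688 and 586 in WT. Its first eif3h array alone was low, with a log2 ratio of -1.59 in that repeat, the lowest of the 33 genes, and 0.22 in the other (fitted -0.68, standard error 0.37, adjusted p = 0.226). petG, which was singled out after its values had been seen, had 512 and 1066 in eif3h and 1176 and 634 in WT. The genotypes changed places between repeats, with log2 ratios of -1.20 and 0.75, a difference of 1.95 that was the widest among the 33 genes. petD, for the subunit that pairs with cytochrome b6, was too dim for the test (173 and 103 in eif3h, 208 and 257 in WT), with ratios of -0.26 and -1.32.

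The ATP synthase genes differed least between repeats, with a median distance between both log2 ratios of 0.31. All 6 were lower in eif3h in the first repeat and 4 in both, and the median log2 fold change was -0.20, or -0.089 after quantile normalization. atpB encodes the catalytic beta subunit. It had 34832 and 65055 in eif3h and 40023 and 73731 in WT, with log2 ratios of -0.20 and -0.18 (fitted -0.19, 95% interval -0.59 to 0.21, adjusted p = 0.461, and -0.033 after quantile normalization). The eif3h array was the lower one in each repeat, but the repeats lay further apart than the genotypes. atpE, the epsilon subunit gene next to it, ran in parallel (-0.23 and -0.19, fitted -0.21, but 0.03 after quantile normalization). atpA, for the alpha subunit, was singled out after its values had been seen. It had 20411 and 21965 in eif3h and 26471 and 27890 in WT, without overlap, and log2 ratios of -0.38 and -0.34 (fitted -0.36, adjusted p = 0.177, and -0.18 after quantile normalization). The membrane subunit genes were less even. atpF was lower in both repeats (-0.68 and -0.09), while atpH, the gene of the ring subunit, and atpI were lower in the first and higher in the second (-0.33 and 0.31, and -0.69 and 0.39).

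rbcL came nearest to the threshold after psbM. Its signals were 2560 and 1677 in eif3h and 4949 and 2240 in WT. The eif3h array was lower in each repeat, but the first eif3h array exceeded the second WT array. The log2 ratio was -0.95 in the first repeat and -0.42 in the second, with a fitted log2 fold change of -0.68 (standard error 0.20, 95% interval -1.14 to -0.22) and an adjusted p of 0.0506 from limma. The gene was called when arrays were centred on their medians, when only the 5000 brightest probe sets were tested, with an offset of 50 on the signal and with an intensity trend in the prior variance. It was not called without the replicate block (adjusted p = 0.399), after quantile normalization (adjusted p = 0.0652) or with all probe sets tested (adjusted p = 0.447). With any 1 array left out, in fits that mix the repeats, its log2 fold change ran from -1.26 (without WT replicate 2) to -0.11 (without WT replicate 1).

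The genes were set against each other by the clusters in which plastid genes are known to be transcribed. The psbE-psbF-psbL-psbJ cluster, whose first genes encode the cytochrome of the photosystem II reaction centre, was the most even of the larger ones. All 4 genes were lower in eif3h in both repeats, with log2 ratios of -0.23 to -0.15 in the first and -0.49 to -0.30 in the second, and none was called. In atpB-atpE the ratios differed between genes by 0.03 in the first repeat and 0.01 in the second. In psbK-psbI both genes were lower in the first repeat (-0.78 to -0.69) and higher in the second (0.12 to 0.95), where they lay 0.83 apart. In petL-petG-psaJ all 3 were higher in the second repeat (0.31 to 0.81), but in the first they ran from -1.20 for petG to 0.01 for psaJ, the widest span of the 8 clusters in that repeat (1.21). The psbD-psbC-psbZ cluster, with ratios of -0.83 to -0.44 in the first repeat, moved to between -0.29 and 0.05 in the second.

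The widest span in the second repeat was in psbB-psbT-psbH-petB-petD. There the ratios lay within 0.39 of each other in the first repeat, but in the second they were 0.39 and 0.72 for psbB and psbT at the start of the cluster, -0.18 and -0.11 for psbH and petB, and -1.32 for petD at its end, a span of 2.05. In atpI-atpH-atpF-atpA the ratio of the second repeat became lower from gene to gene, from 0.39 for atpI through 0.31 and -0.09 to -0.34 for atpA, whereas in the first all 4 lay between -0.69 and -0.33. Genes of a cluster share transcripts, so the counts of genes above are not counts of independent measurements.

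**Figure D3:**
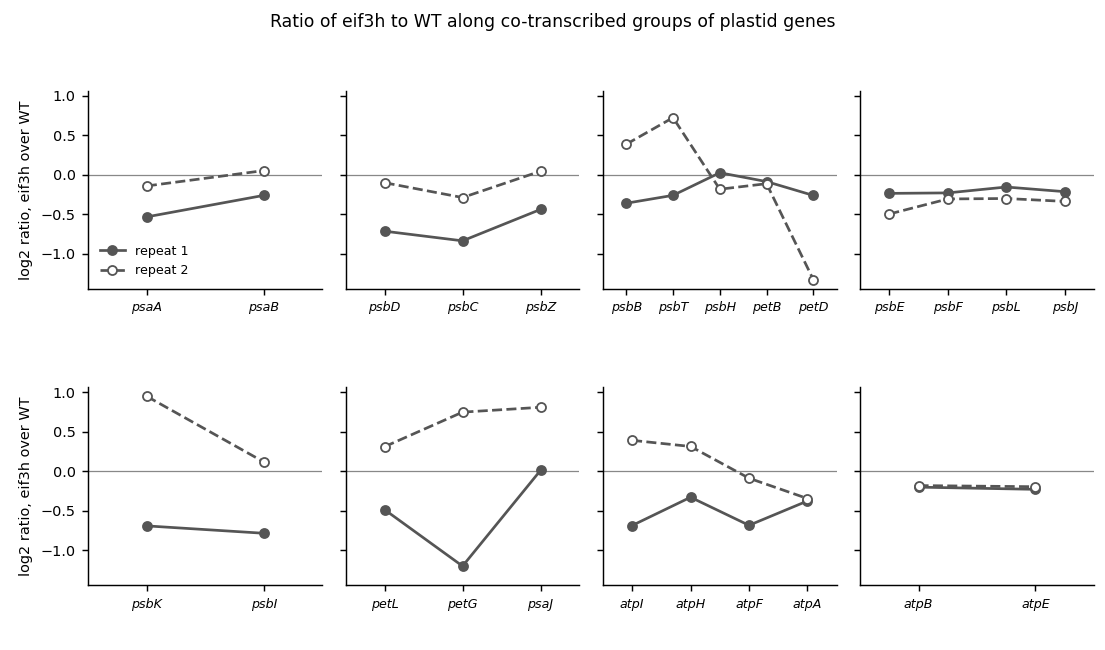
Log2 ratio of eif3h to WT for genes of 8 plastid gene clusters in their order of transcription, with repeat 1 as filled points and solid lines and repeat 2 as open points and dashed lines. The curves nearly coincide for atpB-atpE and stay within 0.26 of each other for psbE-psbF-psbL-psbJ, whereas they separate by up to 1.95 for petG.

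At the median, both ratios of a gene lay further apart in these genes than over all tested probe sets, a difference that was not tested. The ndh genes of the plastid were alike in this. The log2 ratio was higher in the second repeat for 25 of the 33 genes (75.8%), or 24 of the 31 tested, against 52.0% of all probe sets tested. It was higher there for 5 of the 10 ndh genes and 20 of the 26 further plastid genes. The median distance between both ratios of a gene was 0.60 (0.55 for the 31 tested), against 0.26 over all tested probe sets. It was 0.59 for the 10 ndh genes and 0.34 for the 26 further plastid genes. The distance exceeded 1 for 6 photosynthesis genes (petG, petN, psbA, psbK, atpI and the untested petD), or 18.2%. Among the 31 tested it did so for 5 (16.1%), against 3.60% of all tested probe sets. It exceeded 1 for 30% of the ndh genes and 19.2% of the further plastid genes. The distance was under 0.1 for 6 other photosynthesis genes (psbM, psbF, petB, atpA, atpB and atpE), or 18.2%, against 20.7% of all tested probe sets. Across the 31 tested genes, the ratios of the first and the second repeat had a Pearson correlation of -0.07 (Spearman -0.12), against 0.74 (0.68) over all tested probe sets. The correlation was -0.08 (-0.03) across the 10 ndh genes and 0.24 (0.16) across the 26 further plastid genes. These correlations are across genes, which share arrays and clusters and are not independent replicates. In the first repeat the ratios of the 31 tested genes spanned -1.59 to 0.03, and those of all tested probe sets -7.96 to 6.06. A narrower range can by itself lower a correlation, and its part here was not tested.

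**Figure D4:**
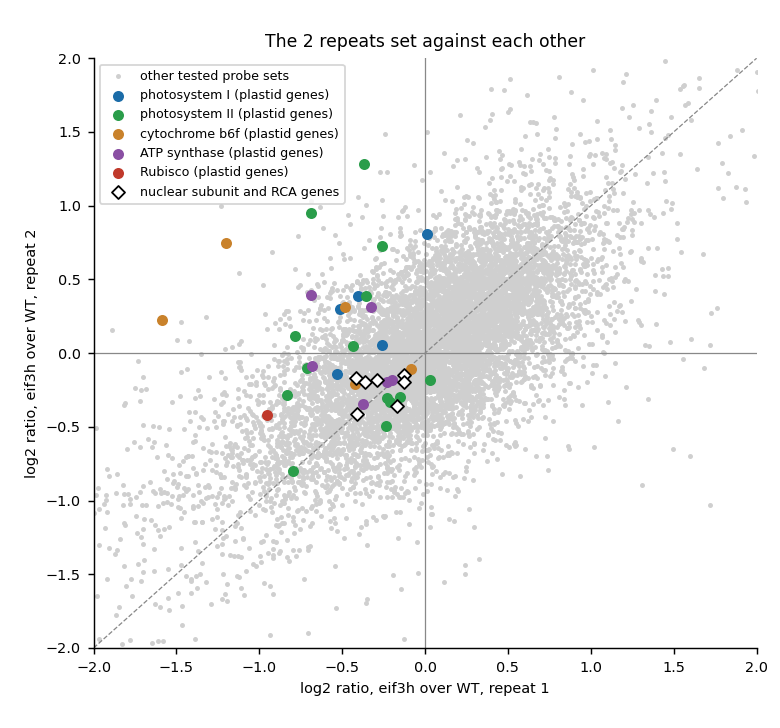
Log2 ratio of eif3h to WT in repeat 1 (horizontal) and repeat 2 (vertical), with the 31 tested plastid photosynthesis genes coloured by complex, 7 nuclear genes of the same complexes and of Rubisco activase as diamonds, and the other tested probe sets in grey, of which 143 lie outside the plotted range. The grey cloud follows the diagonal, whereas 14 of the plastid genes lie in the upper left quadrant, lower in the first repeat and higher in the second.

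The signals of single genotypes show where the repeats parted. In WT 8 of the 33 genes (psbT, petL, psbA, atpI, psaC, psbB, psbZ and rbcL) were over 2-fold lower in the second repeat than in the first, with log2 differences of -2.61 for psbT to -1.14 for rbcL. This was 24.2% of the genes, against 2.62% of all tested probe sets. Other plastid genes shared it, with 3 of the 10 ndh genes and 8 of the 26 further genes over 2-fold lower in WT. All 8 photosynthesis genes were lower in the second repeat in eif3h too, but by less in each case (-1.63 to -0.34 on the log2 scale). In that repeat 7 of these 8 had a higher signal in eif3h, the exception being rbcL. The 8 genes were picked by their WT values, which enter these comparisons. Of the 231 probe sets over the whole test picked in the same way, 206 were lower in the second repeat in eif3h too, 209 were lower by less than in WT (or not at all), and 162 had a higher signal in eif3h in that repeat. In WT the largest differences the other way were those of psbM, atpB, atpE and petA, which were brighter in the second repeat in both genotypes, psbM by 1.21 on the log2 scale in each. Across the 33 genes, the difference between repeats in eif3h and that in WT had a Pearson correlation of 0.73 (Spearman 0.68), against 0.53 (0.50) over all tested probe sets. It was 0.78 (0.76) across the 31 tested genes, 0.60 (0.32) across the 10 ndh genes and 0.85 (0.87) across the 26 further plastid genes. Day of preparation and scanner both changed with the repeat and cannot be told apart. Whether the seedlings of the repeats were grown separately is not given in the sources used here.

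**Figure D5:**
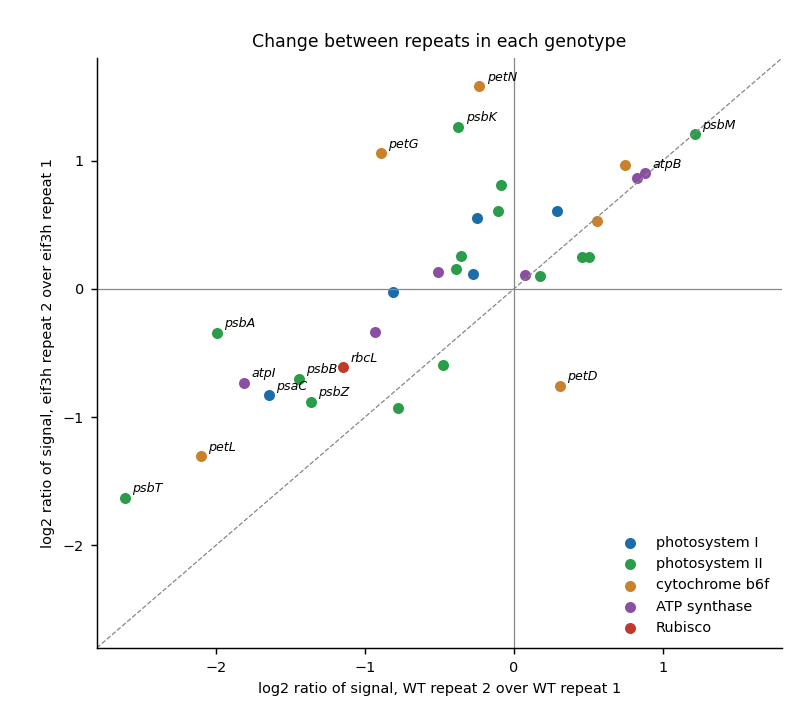
Log2 ratio of the signal in repeat 2 to that in repeat 1 for the 33 genes, in WT (horizontal) and in eif3h (vertical), coloured by complex, with genes of large differences and some on the diagonal named. Most points lie above the dashed diagonal, 25 of the 33, and psbM and atpB lie near it at the upper right.

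Other plastid genes were not all placed as the photosynthesis genes were. Of the 10 ndh genes, which encode a plastid NADH dehydrogenase-like complex for cyclic electron flow, 9 were lower in eif3h in the first repeat and 5 in the second. The 9 tested had a median log2 fold change of -0.55, and 3 of them fell (ndhA, ndhH and ndhI), against 9.68% of all tested probe sets. The call of ndhI was narrow (adjusted p = 0.0499 from limma). Of the 26 further plastid genes, mostly for ribosomal proteins and RNA polymerase subunits, 13 were lower in the first repeat and 9 in the second, and the 24 tested had a median of 0.08. Among these 0 fell and 2 rose, rpoC2, a subunit of the plastid-encoded RNA polymerase, by 0.96 and rps4, a ribosomal protein gene, by 0.90 on the log2 scale. Over all tested probe sets 9.68% fell and 8.49% rose. The difference between these groups and the photosynthesis genes was not tested.

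The nuclear-encoded partners of the complexes were on a list of 40 genes, of which 8 had a probe set named with a single gene and 7 were tested. All 7 were lower in eif3h in both repeats, against 34.7% of all tested probe sets. That share is over probe sets of every brightness tested, whereas the 7 genes were bright, with signals of 14376.5 to 58204. Their values after quantile normalization were not taken, and the part of brightness was not tested. None of the 7 was called (log2 fold changes -0.41 to -0.14). The remaining gene, ATPC2, was too dim for the test (277 and 202 in eif3h, 216 and 277 in WT), with log2 ratios of 0.36 and -0.46. PSAE1, a ferredoxin-side subunit of photosystem I, had 23145 and 26829 in eif3h and 30731 and 35767 in WT, the single gene of the 7 without overlap (fitted -0.41, adjusted p = 0.131). Both eif3h arrays lay below both WT arrays for 23.9% of all tested probe sets. RCA, which encodes Rubisco activase, had 28004.5 and 50782 in eif3h and 30586 and 58204 in WT, with a log2 fold change of -0.16. The other tested genes, PSAN, PSBW, PSBY, PETM and ATPC1, had log2 fold changes of -0.29, -0.28, -0.14, -0.26 and -0.24. Both ratios of a gene differed by at most 0.25 among the 7. None of the 16 listed genes for plastid transcription and none of the 7 for plastid RNA processing had a single-gene probe set in the platform table, so their transcripts were not analysed here.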

How the data were processed

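Total RNA of 2 eif3h and 2 WT samples was hybridised to ATH1 arrays. Each deposited intensity is a linear signal that the authors background-corrected and scaled with MAS 5.0. Its mean was 500.0 on each array with 2% trimmed at each end, and no further scaling was done. Gene names came from the platform annotation (13513 probe sets with 1 gene, 503 with several, 8730 with none) and the gene table. Detection calls were not used here, and the settings files of the arrays served only to see that both arrays of a repeat shared a day and a scanner (2 of 2 repeats, 2 scanners).

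Log2 signals of the 8831 brightest probe sets entered a linear model (lmFit and eBayes of limma 3.58.1, R 4.3.3), with terms for repeat and genotype (1 residual and 6.58 prior degrees of freedom) and Benjamini-Hochberg adjustment. The repeat was taken as a block because the study forms its ratios within a repeat. Changes from repeat to repeat in the genotypes correlated at 0.530 over the tested probe sets. The number of arrays limits the precision. The fit was tested on simulated data. Alternatives were no replicate block, quantile normalization, median centring, testing every probe set or the 5000 brightest, adding 50 to the signal, an intensity trend, omission of probe sets that may cross-hybridise, and leaving out each array. Counts per repeat under other scalings were added after seeing the data. Values on every array are given for called genes, the 5 highest and 5 lowest fold changes, and psaA, psaB, psbA, psbD, petB, atpB and rbcL. Other genes described array by array were chosen after their values were seen. The genes, lists and clusters were chosen with earlier results of these data known. Summaries and plots were made in Python 3.11.15 (pandas 2.3.3, numpy 2.4.6, matplotlib 3.10.9).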

Additional observations from a re-analysis of the deposited data

How the results depend on the processing

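The number of genes called lower was 1 (psbM) as reported, 0 without the replicate block, 0 after quantile normalization and 0 with all 22746 probe sets, where no probe set at all was called and 1 of the 33 genes had an unadjusted p under 0.05. It was 2 (psbM and rbcL) after median centring, among the 5000 brightest probe sets (29 of the genes) and with an offset of 50, and 4 (atpA, psbC, psbM and rbcL) with an intensity trend in the prior variance. No gene was called higher under any setting tried. At an unadjusted p under 0.05 the settings with all arrays gave 0 to 12 genes. The share of all tested probe sets at that p was not taken for the alternative settings. After quantile normalization the sign turned for atpE (0.027), petB (0.14), psaB (0.13), psaI (0.0097) and the photosystem I median (0.0097), and after median centring for psbB (-0.024). No other sign turned under settings with all arrays. With 3 arrays the block leaves no residual degree of freedom, so each array was left out in fits without the block, which set arrays of different repeats against each other. Each of these fits leaves 1 array in 1 of the genotypes, so only fold changes are given for them. The median log2 fold change ran from -0.47 to -0.11 over all genes, from -0.42 to 0.39 for photosystem I (0.39 without WT replicate 1), from -0.52 to -0.13 for photosystem II, from -0.31 to -0.12 for ATP synthase, and from -0.75 (without eif3h replicate 2) to 0.17 (without eif3h replicate 1) for cytochrome b6f. The log2 fold change of psbM ran from -1.41 to -0.19 and that of rbcL from -1.26 to -0.11. The log2 fold change turned sign for 22 of 31 genes, namely atpB (-0.64 to 0.26), atpE (-0.64 to 0.22), atpF (-0.85 to 0.081), atpH (-0.26 to 0.25), atpI (-1.05 to 0.76), petA (-0.80 to 0.17), petB (-0.38 to 0.18), petG (-0.75 to 0.30), petL (-1.14 to 0.96), petN (-1.47 to 0.11), psaB (-0.41 to 0.20), psaC (-0.93 to 0.71), psaI (-0.42 to 0.39), psbA (-0.54 to 1.45), psbB (-0.71 to 0.74), psbH (-0.31 to 0.15), psbI (-0.74 to 0.074), psbJ (-0.57 to 0.025), psbK (-0.50 to 0.76), psbL (-0.69 to 0.24), psbT (-1.07 to 1.54) and psbZ (-0.88 to 0.49). The causes were not tested. The number of arrays limits the precision, and petD and psbN, below a mean signal of 327, were too dim to be tested.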
